A study of Mus musculus with 4 samples.

Results

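The genes described here are 9 chemokine genes of the mouse, 5 of the CXC family (Cxcl1, Cxcl2, Cxcl5, Cxcl10 and Cxcl12) and 4 of the CC family (Ccl2, Ccl5, Ccl7 and Ccl20), out of 32285 genes counted. They were matched by gene symbol, and were chosen by their summed counts per library and cell class, and by how often feeder cells held them together, in these same data, so these values are a description and carry no test. Chemokines are small secreted proteins that steer migrating cells by binding G protein-coupled receptors. CXC chemokines have a residue between the first cysteines of the protein, and in CC chemokines these cysteines lie side by side. Many of them are induced in fibroblasts and immune cells by NF-kB, a transcription factor of inflammation, or by interferons, while Cxcl12 is made steadily by stromal cells and, through its receptor Cxcr4, is known for holding stem cells, those of the testis included, in their niche.

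The cells came from primary spermatogonial cultures of C57BL/6 mice, for which no transgene or mutation is given. Testes of 3 male pups at postnatal day 6 supplied Thy1-positive cells, a fraction rich in undifferentiated spermatogonia, and these were grown on STO cells, a mouse embryonic fibroblast line used as a feeder layer. Cultures received PBS (the vehicle) or extracellular vesicles (EVs) from postnatal day 7 testis at 1 μg/mL, in both cases for 3 days. There were 2 libraries in each arm, and counts of 3 of them were analysed, namely vehicle 1, vehicle 2 and EV 1. The expression of EV 2 was not analysed here, so that the EV arm is 1 library, its distance from the vehicle arm cannot be checked in a second one, and no p-value is given.

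After filtering, 8263, 8637 and 4779 cells of vehicle 1, vehicle 2 and EV 1 were kept. In each cell the UMIs (molecular barcodes that count captured RNA molecules) of 4 germ cell genes (Dazl, Tex15, Stk31, Epcam) were set against those of 4 fibroblast genes (Col1a1, Col1a2, Sparc, Dcn), and a cell with at least 2 UMIs of 1 kind and fewer of the other was put in the germ or the feeder class. The feeder class held 2357, 2473 and 2508 cells, the germ class 4411, 4783 and 227, and 1495, 1381 and 2044 cells were in neither. The names were checked on other markers. In the libraries 8 further fibroblast genes summed to between 1576 and 1772 CPM (UMIs per 1000000 UMIs of the class) in the feeder class and to between 186 and 298 in the germ class, and 8 further germ cell genes to between 10.0 and 29.3 CPM against between 655 and 914. STO cells and fibroblasts carried over from the pups cannot be told apart by this rule. Sertoli cell genes summed to between 283 and 305 CPM in the feeder class, mostly from Sox9, and those of Leydig, peritubular myoid and endothelial cells to at most 27.3 CPM. The median depth of feeder cells was 3635, 3896 and 2447.5 UMIs in that order, and that of germ cells 1936, 2091 and 1322. Any pair of libraries shared at most 22 cell barcodes. All intervals are 95% intervals and cover counting error only.

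Most of the chemokines were higher in feeder cells than in germ cells of the same library. Of the 9 genes, 7 had at least 200 UMIs in the feeder cells of the 3 libraries together, the exceptions being Cxcl5 with 27 and Ccl20 with 3. In vehicle 1 all 7 were at least 2-fold higher in feeder than in germ cells (background 21% of 12134 genes with at least 200 UMIs in both classes together), in vehicle 2 again 7 (background 21.2%), and in EV 1 6 (background 17.5%), the other one being Cxcl10 with 10 and 0 UMIs. Of these, Cxcl2, Cxcl10, Cxcl12 and Ccl5 reached the minimum only through the feeder class, so their place in this count follows in part from the filter. The median log2 ratio of feeder over germ CPM, averaged over the libraries, was 3.72 for the 7 genes and −0.34 for all genes of that comparison.

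The plot of levels by library shows the 9 genes side by side.

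**Figure D1:**
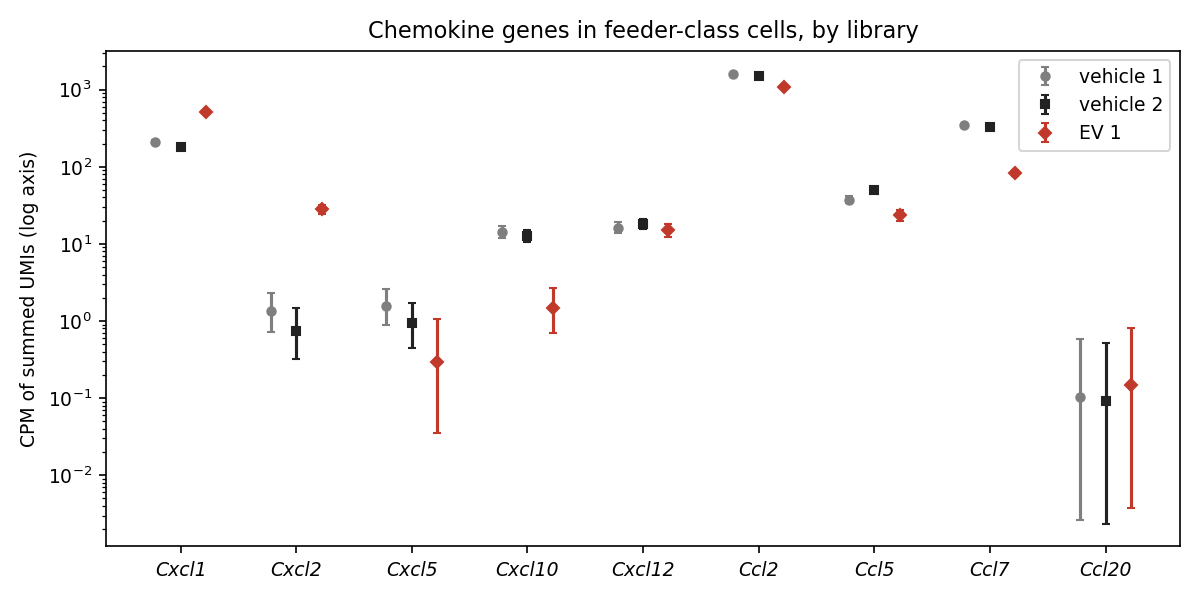
CPM of summed UMIs of each chemokine in feeder-class cells, on a log axis, with exact 95% Poisson intervals, for vehicle 1 (circles), vehicle 2 (squares) and EV 1 (diamonds). Cxcl1 and Cxcl2 sit higher in EV 1 than in both vehicle libraries, Cxcl10, Ccl7, Ccl2 and Ccl5 sit lower, and Ccl20 rests on 1 UMI in each library. Levels of different genes are not to be compared, since gene length is not accounted for.

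Against the vehicle mean, 2 of the 7 genes, Cxcl1 and Cxcl2, were at least 2-fold higher in the feeder cells of EV 1, while 1.41% of 9705 genes with enough UMIs were. Another 2, Cxcl10 and Ccl7, were at least 2-fold lower, against 2.82% of the genes. Cxcl12, Ccl2 and Ccl5 lay between. The median log2 ratio was −0.53 over the 7 genes and −0.13 over all 9705. Between the vehicle libraries 0.0103% of the genes were 2-fold higher in vehicle 2 and 0.0103% were 2-fold lower, and none of the 7 chemokines was among them. Cxcl1 and Ccl7 had over 200 UMIs in every library, whereas Cxcl2 passed the minimum only through EV 1 (190 of its 211 UMIs), so that being counted as higher follows from the filter, and Cxcl10 passed through the vehicle libraries (137 and 136 of its 283 UMIs). The genes were picked for such contrasts, and their counts are given beside the background without a reading of it.

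Cxcl1 and Cxcl2 attract neutrophils through the receptor Cxcr2 and are neighbours in the CXC cluster of chromosome 5. In the GRCm38 annotation, Cxcl1 (ENSMUSG00000029380) lies at chr5:90891241-90893115 and Cxcl2 (ENSMUSG00000058427) at chr5:90903871-90905938, both on the plus strand, with 10.8 kb and no other protein-coding gene between. Cxcl5 (chr5:90759360-90761624) lies 129.6 kb before Cxcl1. The RefSeq promoter table (GRCm38.p6) holds 5 of the 9 genes. The stretch from 120 to 31 bases before the RefSeq transcription start is shown for 4 of them. These were taken because Cxcl1 and Cxcl2 were higher in EV 1, Cxcl10 was lower and Cxcl12 was close to the vehicle level. The RefSeq start can differ from the gene start given above, and the Cxcl2 stretch ends just before the latter. Capitals mark matches to a kappa B-like motif (GGGA, any 4 bases, CC), the core of NF-kB sites, read on both strands, where matches of the strands may overlap.
Cxcl1 (chr5:90891125-90891214, plus strand): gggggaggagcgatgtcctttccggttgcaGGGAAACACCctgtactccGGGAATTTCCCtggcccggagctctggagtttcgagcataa
Cxcl2 (chr5:90903779-90903868, plus strand): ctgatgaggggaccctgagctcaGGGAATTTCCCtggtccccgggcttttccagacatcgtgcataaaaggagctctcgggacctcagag
Cxcl10 (chr5:92348920-92349009, minus strand): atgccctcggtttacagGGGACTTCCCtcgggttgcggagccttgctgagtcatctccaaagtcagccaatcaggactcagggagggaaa
Cxcl12 (chr6:117168415-117168504, plus strand): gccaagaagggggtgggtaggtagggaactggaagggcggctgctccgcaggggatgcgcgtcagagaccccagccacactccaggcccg

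Cxcl1 and Cxcl2 both contain the run GGGAATTTCCC, Cxcl1 has a further match, GGGAAACACC, and Cxcl10 contains GGGACTTCCC. Ccl20 has 1 match as well, so that 4 of the 5 chemokines in the table have one, as do 7.23% of 27025 promoters over the same 90 bases. The core motif of interferon response elements was taken as GAAA, any 2 bases, GAAA, on both strands. Within these 90 bases it was found in none of the 5 and in 0.884% of all promoters. With so low a share its absence from 5 promoters says little, and matches farther from the start were not looked at for them. A kappa B-like match is a run of letters and not a site of binding. It was found in the genes that were higher in EV 1 and in Cxcl10, which was lower.

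Cxcl1 reached 209.9 CPM in vehicle 1 (2007 UMIs, interval 200.8 to 219.3), 183 CPM in vehicle 2 (1965 UMIs, 175 to 191) and 506 CPM in EV 1 (3436 UMIs, 489.6 to 524). The intervals of EV 1 and of the vehicle libraries lay far apart. The vehicle mean was 196 CPM ± 19.3 (SD, n = 2), and the ratio of EV 1 to the pooled vehicle libraries was 2.59 (interval 2.47 to 2.71). A UMI of Cxcl1 was present in 30.3%, 29.6% and 40.4% of the feeder cells of vehicle 1, vehicle 2 and EV 1. To take out the unequal depth, each cell was thinned to 1000 UMIs, leaving out 86, 56 and 184 shallower cells, and the shares then were 12.7% (11.4 to 14.2), 11.3% (10.1 to 12.6) and 25.0% (23.2 to 26.8). More cells with a UMI were thus found in EV 1 at equal depth, and heavily loaded cells were also more frequent there, with 34, 30 and 72 cells holding 10 UMIs or more. The highest cell held 68, 65 and 64 UMIs of Cxcl1, at most 3.39% of the sum, so that no cell decided the level.

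Cxcl2 behaved otherwise. It had 13 UMIs in feeder cells of vehicle 1 (1.36 CPM, interval 0.724 to 2.33), 8 in vehicle 2 (0.744 CPM, 0.321 to 1.47) and 190 in EV 1 (28.0 CPM, 24.2 to 32.3), with a log2 ratio of 4.67. Of the 190 UMIs in EV 1, 149 came from a single cell out of 2508, which is 78.4% of the sum, and another 18 came from the next cell. In vehicle 1 the highest of 3 cells with a UMI held 10 of the 13 UMIs, and in vehicle 2 the highest of 5 held 4 of the 8. Without the highest cell of each library the levels were 0.314, 0.372 and 6.05 CPM, with a log2 ratio of 3.96, and 13 cells of EV 1 had a UMI in the first place. The Poisson intervals above treat UMIs as independent and are too narrow for a gene held by so few cells. At 1000 UMIs per cell the share with a UMI was 0.0440% (0.00777 to 0.249), 0.0414% (0.00730 to 0.234) and 0.344% (0.174 to 0.678), and these intervals of EV 1 and the vehicle libraries overlapped.

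**Figure D2:**
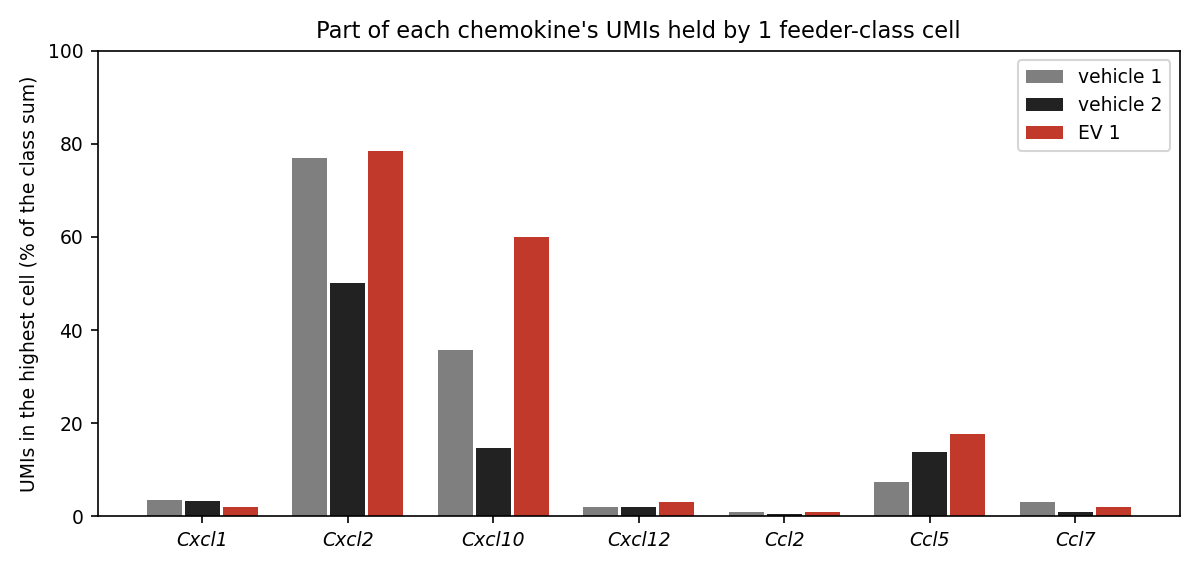
Percent of each chemokine's UMIs in the feeder class that lay in the single highest cell, by library, for the 7 genes with at least 200 UMIs. For Cxcl2 the highest cell held 76.9%, 50.0% and 78.4% in vehicle 1, vehicle 2 and EV 1, while for Ccl2 it held under 1% in each.

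The cells with Cxcl2 were also rich in Cxcl1. The cell with 149 UMIs of Cxcl2 had 49 of Cxcl1 among its 4755 UMIs, the next, with 18, had 64, and the highest cells of vehicle 1 and vehicle 2, with 10 and 4 of Cxcl2, had 18 and 17. Of the 13 cells of EV 1 with Cxcl2, 12 had a UMI of Cxcl1, and Cxcl1 stood at 3700 CPM in them against 483 CPM in the 2495 other feeder cells. In the vehicle libraries 2 of 3 and 3 of 5 such cells had Cxcl1. None of the 3 highest cells of EV 1 had a UMI of the 9 macrophage and leukocyte markers searched (Adgre1, Csf1r, Ptprc, Lyz2, Cd68, C1qa, C1qb, Tyrobp, Cd14), and they held 4, 55 and 6 UMIs of the fibroblast genes. Over all feeder cells this marker list summed to 24.7, 19.2 and 34.5 CPM, mostly from Cd68 (64, 67 and 123 UMIs), Cd14 (93, 89 and 74) and Lyz2 (61, 28 and 15). Of the others, Ptprc had 9, 6 and 6 UMIs, Csf1r 5, 12 and 10, Adgre1 3, 5 and 3, Tyrobp 0, 0 and 3 and C1qa 1, 0 and 0, and C1qb was at 0. Its part in the chemokine levels was not tested.

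Cxcl5, another neutrophil chemokine of the cluster, had 15, 10 and 2 UMIs in feeder cells of vehicle 1, vehicle 2 and EV 1. The EV 1 value was 0.295 CPM (0.0357 to 1.06) and the vehicle values were 1.57 (0.878 to 2.59) and 0.930 (0.446 to 1.71), so the intervals of EV 1 overlapped both. Cxcl5 thus did not share the higher level of its neighbours, as far as so few UMIs show. Ccl20, which attracts cells bearing Ccr6, was represented by 1 UMI in each library and is not read further. It lies at chr1:83116766-83119167 on the plus strand.

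Cxcl10 is the interferon-induced chemokine that draws T cells through Cxcr3. It lies on the minus strand at chr5:92346638-92348889, and overlaps Art3 on the other strand. It had 137 UMIs in feeder cells of vehicle 1 (14.3 CPM, 12.03 to 16.9), 136 in vehicle 2 (12.6 CPM, 10.6 to 15.0) and 10 in EV 1 (1.47 CPM, 0.707 to 2.71). The vehicle libraries lay close together, and the EV library lay 9.12-fold below their pooled level (log2 ratio −3.13). Cells with a UMI were few, 40, 55 and 5. The highest of them held 49, 20 and 6 UMIs, or 35.8%, 14.7% and 60% of the sum. Without these cells the levels were 9.21, 10.8 and 0.590 CPM, and the log2 ratio was −3.92.

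The cells high in Cxcl10 were also loaded with other interferon-stimulated transcripts. The highest cell of vehicle 1 held 112 UMIs of the interferon list (18 genes such as Ifit1 and Isg15), that of vehicle 2 held 71 and that of EV 1 held 25, and they had 0, 0 and 1 UMI of the macrophage and leukocyte markers. Feeder cells with at least 5 such UMIs numbered 453, 494 and 39, and they carried 116 of the 137, 108 of the 136 and 7 of the 10 UMIs of Cxcl10. In those cells Cxcl10 stood at 44.0 CPM (36.4 to 52.8), 35.5 CPM (29.1 to 42.8) and 43.5 CPM (17.5 to 89.6). A single cell held 49 of the 116 UMIs in vehicle 1, 20 of the 108 in vehicle 2 and 6 of the 7 in EV 1. The intervals are therefore too narrow, and the level in EV 1 rests on 1 cell. Since Cxcl10 is itself such a gene and deep cells pass a UMI minimum more easily, with medians of 5348, 5923 and 3780 UMIs, the split is a description only.

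Ccl2 and Ccl7 attract monocytes through Ccr2 and sit side by side on chromosome 11. Ccl2 (ENSMUSG00000035385) lies at chr11:82035571-82037453 and Ccl7 (ENSMUSG00000035373) at chr11:82045712-82047525, both on the plus strand, with 8.3 kb and no gene between, and Ccl2 overlaps Gm17268 of the other strand. The pair differed in its distance from the vehicle level. Ccl2 stood at 1607 CPM (1581 to 1632) in vehicle 1, 1507 CPM (1484 to 1530.2) in vehicle 2 and 1079.6 CPM (1055 to 1105) in EV 1. Its ratio to the pooled vehicle libraries was 0.695 (0.677 to 0.713). Ccl7 stood at 350.8 CPM (339 to 363), 325 CPM (314 to 336) and 83.4 CPM (76.7 to 90.6). The ratio for Ccl7 was 0.247 (0.227 to 0.270), with 566 UMIs in EV 1, and the log2 ratio of −2.02 was number 29 from the bottom. For both genes EV 1 lay below both vehicle libraries, and by a wider margin for Ccl7.

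At 1000 UMIs per cell, Ccl2 was found in 54.1%, 52.7% and 42.9% of the feeder cells of vehicle 1, vehicle 2 and EV 1, and Ccl7 in 19.0%, 19.2% and 5.81%. The intervals of EV 1, 40.9 to 44.9 and 4.93 to 6.83, excluded the vehicle shares. Without thinning the shares were 77.8%, 76.0% and 60.4% for Ccl2 and 42.4%, 43.2% and 13.6% for Ccl7. Cells with 10 UMIs or more of Ccl7 numbered 59, 64 and 2, and for Ccl2 they numbered 493, 516 and 196.

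**Figure D3:**
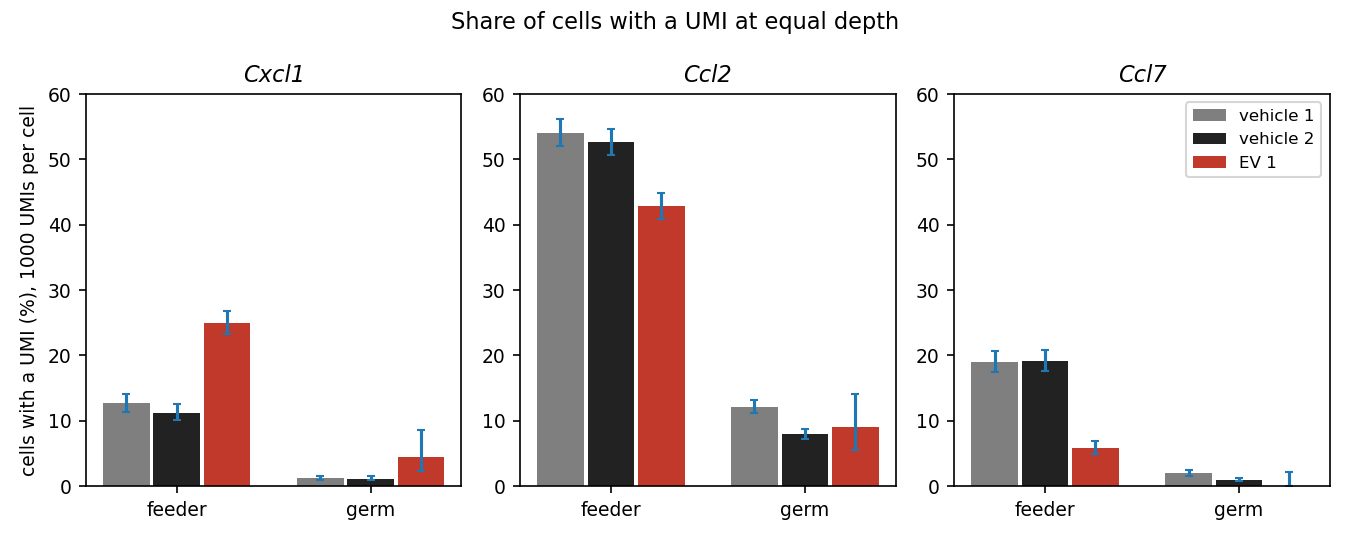
Percent of feeder-class and germ-class cells with a UMI of Cxcl1, Ccl2 or Ccl7 when every cell was thinned to 1000 UMIs, by library. Error bars are 95% Wilson intervals. In feeder cells the EV 1 bar is the highest for Cxcl1 (25.0%) and the lowest for Ccl2 (42.9%) and Ccl7 (5.81%), and every germ bar is below the feeder bar of its library.

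Ccl5, a chemokine of T cells and monocytes, lies on the minus strand at chr11:83525778-83530518. It had 358 UMIs in vehicle 1 (37.4 CPM, 33.7 to 41.5), 541 in vehicle 2 (50.3 CPM, 46.1 to 54.7) and 159 in EV 1 (23.4 CPM, 19.9 to 27.4). The vehicle libraries were themselves 0.42 log2 units apart, beyond their counting intervals, and EV 1 was 0.90 units below their mean. Cells with a UMI were 113, 118 and 51, and the highest cell held 26, 75 and 28 UMIs. In vehicle 2 the cell with 75 UMIs of Ccl5 also had 9 of Cxcl10, 30 of the interferon list and 1 of the macrophage and leukocyte markers. Of the 4 highest Ccl5 cells of EV 1, 2 had 1 UMI of those markers. In feeder cells with at least 5 UMIs of the interferon list, Ccl5 stood at 62.6, 116 and 162 CPM in vehicle 1, vehicle 2 and EV 1. The last came from 26 UMIs in 39 cells, with an interval of 105.6 to 236.8. In cells with none it stood at 16.1 CPM (9.82 to 24.8), 22.6 CPM (15.3 to 32.3) and 14.9 CPM (10.8 to 20.1). These intervals overlapped. EV 1 was thus not lower in the first group, and this split was not tested.

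Cxcl12, the niche chemokine, was the gene nearest to its vehicle level. It lies at chr6:117168535-117181367 on the plus strand. Its 155, 194 and 102 UMIs in feeder cells gave 16.2 CPM (13.8 to 19.0), 18.0 CPM (15.6 to 20.8) and 15.0 CPM (12.3 to 18.2), and all these intervals overlapped. The ratio of EV 1 to the pooled vehicle libraries was 0.875 (0.695 to 1.09). Most cells with a UMI had only 1, namely 126 of 139, 144 of 165 and 87 of 94, and no cell held more than 4. It was spread over many cells at a low count, unlike Cxcl2, Cxcl10 and Ccl5.

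Chemokines were also counted pair by pair in the same feeder cells. For the 5 genes with a UMI in at least 1% of the thinned feeder cells of every library (Cxcl1, Cxcl12, Ccl2, Ccl5 and Ccl7) there were 10 pairs, and the share of cells with both genes was divided by the product of the single shares. The median of this ratio over the pairs was 1.27 in vehicle 1, 1.41 in vehicle 2 and 1.46 in EV 1. Over 8143 genes, the median ratio with the same 5 chemokines lay between 0.72 and 0.98, and its 90th percentile between 1.10 and 1.13 for Ccl2, 1.21 and 1.37 for Cxcl1, 1.23 and 1.48 for Ccl7, 1.72 and 2.29 for Ccl5 and 1.96 and 2.21 for Cxcl12. Of the 10 pairs, 8, 7 and 7 did not pass the percentile of both their genes in vehicle 1, vehicle 2 and EV 1, and only Ccl2 with Ccl7 and Cxcl1 with Ccl7 passed it in every library. Ccl2 and Ccl7 gave 1.42, 1.48 and 1.71. In vehicle 1 Ccl7 was found in 26.9% of cells with Ccl2 and in 9.68% of cells without, in vehicle 2 in 28.4% and 9.0%, and in EV 1 in 9.94% and 2.71%. The link between the pair was thus found in EV 1 too, at a lower level of Ccl7. The 10 pairs leave out Cxcl10, which was under the 1% limit. Without thinning, Cxcl10 with Ccl5 gave 7.30, 5.72 and 29.5 in vehicle 1, vehicle 2 and EV 1, from 14, 15 and 3 cells. Ccl2 with Ccl7 then gave 1.20, 1.23 and 1.47. Ccl5 was found in 35%, 27.3% and 60% of cells with Cxcl10 and in 4.27%, 4.26% and 1.92% of cells without. Depth was left unequal in these last values, and they were not set against a percentile.

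Cxcl1 and Ccl2, which lay on opposite sides of the vehicle level in EV 1, were found together more often than the product of their shares in every library, with ratios of 1.29, 1.34 and 1.28 and 202, 192 and 317 cells. In the vehicle libraries these ratios lay below the 90th percentile of Cxcl1 with other genes (1.35 and 1.37). Among cells with Cxcl1 of EV 1, 54.7% had Ccl2, and among those without, 38.9%. Ccl5 and Ccl7 gave 0.97, 1.00 and 1.43, the last from 2 cells. Cells of 1 library share depth, free RNA and size, and these ratios carry no test.

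**Figure D4:**
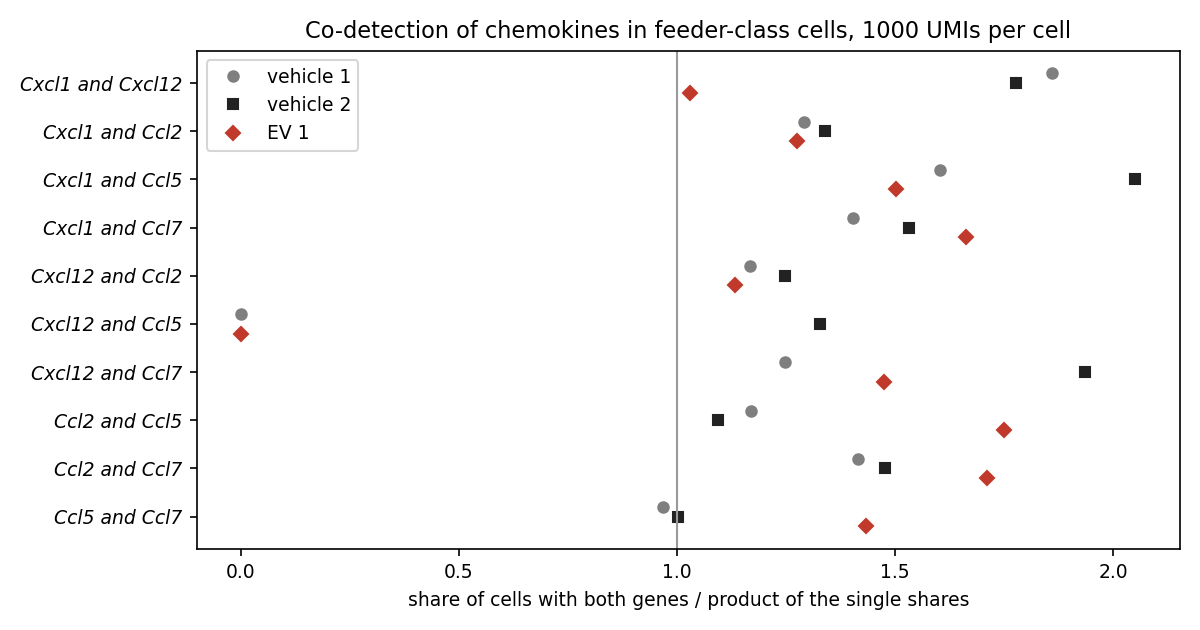
Share of feeder-class cells with both genes divided by the product of the single shares, for the 10 pairs of 5 chemokines, each cell thinned to 1000 UMIs. Points right of the line at 1 mean more cells with both than the product of the shares. Cxcl1 with Ccl2 lies between 1.28 and 1.34 in all libraries, and the 2 points at 0 (Cxcl12 with Ccl5) are pairs found in no cell.

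Leaving out the 9 chemokines, the genes whose cell-to-cell pattern was most like that of Cxcl1, among 5974 genes and by the mean Pearson r over the 3 libraries (2271, 2417 and 2324 cells at 1000 UMIs), were Nfkbia (r = 0.125), the inhibitor of NF-kB, Mt2 (0.123), a metallothionein, and Slpi (0.121), a protease inhibitor. For Ccl2 they were Ctsl (0.242), Spp1 (0.241) and Tm4sf1 (0.215), and for Ccl7 Spp1 (0.152), Ctsl (0.132) and Lgals1 (0.114). By library, r with Cxcl1 was 0.138, 0.166 and 0.071 for Nfkbia and 0.091, 0.081 and 0.197 for Mt2. Their order in EV 1 was thus the reverse of that in the vehicle libraries. Between the chemokines the mean r was 0.319 for Ccl2 with Ccl7, above the genes named for either, 0.185 for Ccl2 with Cxcl1, above the genes named for Cxcl1 and below those named for Ccl2, and 0.0906 for Cxcl1 with Ccl7, below the genes named for either. In sparse counts such weak values are no more than a ranking, and the cells of a library share its depth and base composition.

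Split by metallothionein, Cxcl1 stood at 235 and 184 CPM in feeder cells above and at or below the median Mt1 and Mt2 share of vehicle 1, at 226 and 138 in vehicle 2, and at 686 and 297 in EV 1. It was thus higher in the metallothionein-rich cells of each library, and higher in EV 1 than in the vehicle libraries on both sides of the split. The cut was each library's own median, and Mt1 stood at 2642, 2534 and 9027 CPM in these feeder cells. The sides are therefore not matched between libraries, and the split does not compare cells of like metallothionein level. In feeder cells without any UMI of the interferon list, of which there were 493, 470 and 1252, Ccl2 stood at 959.7 CPM (906 to 1016), 1012 CPM (958 to 1067) and 960.3 CPM (925 to 997), with overlapping intervals. In the same cells Ccl7 stood at 195 CPM (172 to 221), 183 CPM (160.4 to 207) and 72.6 CPM (63.1 to 83.2), and Cxcl1 at 139 CPM (119 to 161), 202 CPM (178 to 227) and 485 CPM (459.6 to 511). In the cells with at least 5 interferon UMIs, Ccl2 stood at 1817 CPM (1766 to 1869), 1926 CPM (1877 to 1976) and 1423 CPM (1245 to 1620.0), Ccl7 at 471, 437 and 149 CPM, and Cxcl1 at 269.7 CPM (250.3 to 290.3), 215 CPM (199 to 232) and 354 CPM (268 to 459.0). Ccl7 was thus lower in EV 1 in both groups of cells and Ccl2 in the second, where the interval of Cxcl1 overlapped that of vehicle 1. Whether the groups differ in this was not tested. The cells without interferon UMIs were shallow, with medians of 2230, 2513 and 2083.5 UMIs.

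Of the other chemokine genes listed, 25 of 26 were found and 6 had at least 200 UMIs in feeder cells, of which 0 were 2-fold higher and 1 was 2-fold lower in EV 1 (backgrounds 1.41% and 2.82%, median log2 ratio −0.26). That gene was Ccl9, a CC chemokine of myeloid cells, with 309, 318 and 42 UMIs and a log2 ratio of −2.31. The next lowest were Cxcl16 (−0.34) and Ccl27a (−0.33), and the highest were Ccl25 (0.08), Ccl17 (0.02) and Cx3cl1 (−0.19). Cxcl3, a near relative of Cxcl1 and Cxcl2, had 12 UMIs in vehicle 1 and 0 in the others.

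Receptors were scarce in feeder cells, where 1 of 22 genes reached 200 UMIs. This was Ackr3, an atypical receptor that takes up Cxcl12, with 251, 253 and 437 UMIs in vehicle 1, vehicle 2 and EV 1, or 26.3, 23.5 and 64.4 CPM, and a log2 ratio of 1.37. The signalling receptor Cxcr4 had 3, 1 and 0 UMIs in feeder cells and 30, 29 and 1 in germ cells, so Cxcl12 and its receptor were counted mostly in different classes. Cxcr2 had 6, 6 and 9 UMIs in feeder cells and 4, 2 and 0 in germ cells. Ccr2 had 0, 2 and 0 in feeder cells and none in germ cells, where 3 counts would correspond to 9.23 CPM in EV 1.

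The wider lists of the same cells did not move as 1 group. Of 31 genes of NF-kB signalling and the acute phase, 23 had enough UMIs, and 2 were 2-fold higher and 4 lower (median log2 ratio −0.25). The highest were Ptgs2 (1.41), which makes prostaglandins, Lif (1.02), a cytokine, and Zc3h12a (0.66), and the lowest were Vcam1 (−2.10), a leukocyte adhesion molecule, C3 (−1.62), the central complement factor, and Tlr2 (−1.22). Of 18 interferon-stimulated genes found, 13 had enough UMIs, and 0 were higher and 6 lower (median −0.98), with Ifit1 (−2.60) and Ifit3 (−2.45) the lowest, and with Irf9 (−0.23), Ddx58 (−0.31) and Stat2 (−0.47) the highest. Of 11 stress genes, 6 were higher and 2 lower (median 1.19), with Hbegf (2.24), Cryab (2.15) and Mt2 (1.92) at the top and Fos (−3.21), Egr1 (−1.13) and Junb (−0.31) at the bottom. The backgrounds are the 1.41% and 2.82% given above, and these lists were written with earlier results known.

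**Figure D5:**
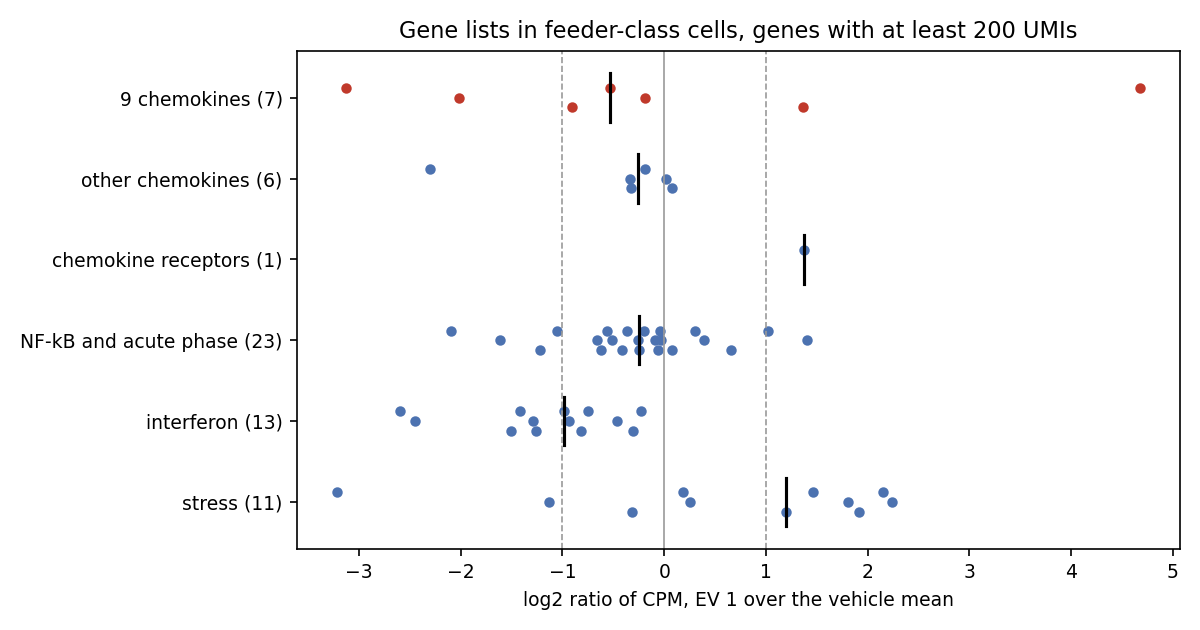
Log2 ratio of CPM in feeder-class cells, EV 1 over the vehicle mean, for each gene with at least 200 UMIs, by list, with the number of genes in brackets. Black bars are medians and dashed lines mark 2-fold. The chemokines run from −3.13 (Cxcl10) to 4.67 (Cxcl2, mostly from 1 cell), and the medians of the other lists lie between −0.98 for interferon-stimulated genes and 1.37 for the single receptor.

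Germ cells also held chemokine UMIs, at a low share of the feeder level. Cxcl1 had 11.96, 9.90 and 49.2 CPM in germ cells of vehicle 1, vehicle 2 and EV 1, which is 5.70%, 5.42% and 9.72% of its feeder level (interval 5.55 to 15.8 in EV 1). Ccl2 had 124, 77.1 and 117 CPM, or 7.71%, 5.12% and 10.8%. Ccl7 had 19.0, 10.9 and 3.08 CPM, the last from 1 UMI. Of the 8 further fibroblast genes, 6 had enough UMIs, and their germ levels ran from 4.10% (Pdgfra) to 55.6% (Col5a1) of the feeder level in vehicle 1, from 4.40% (Col3a1) to 62.2% (Col5a1) in vehicle 2, and from 0% (Pdgfrb) to 49.2% (Col5a1) in EV 1. With Col5a1 that range is too wide to place the chemokines by it. Without Col5a1 the highest were Fn1 (11.3%) in vehicle 1, Pdgfrb (10.4%) in vehicle 2 and Fn1 (19.0%) in EV 1. Cxcl1 and Ccl2 lay within the range of these remaining genes in each library. Whether the chemokine UMIs in germ cells are free RNA or expression was not tested.

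With 1 library of 227 germ cells, 3 chemokines had at least 200 UMIs in germ cells overall. Cxcl1 was higher in EV 1 by 2.21 on the log2 scale (background 4.15% higher), from 16 UMIs in 16 cells, Ccl7 was lower from 1 UMI, with a ratio of 0.211 to the pooled vehicle libraries (0.00531 to 1.18, background 4.49% lower), and Ccl2 was at 0.24. Germ cells without any UMI of the 4 fibroblast genes numbered 3328, 3809 and 176, and Cxcl1 stood at 11.8, 10.9 and 44.6 CPM in them and Ccl2 at 125, 75.9 and 129.8 CPM. Cxcl2, Cxcl5, Cxcl10 and Ccl20 had 0 UMIs in the germ cells of EV 1, where a floor of 3 counts corresponds to 9.23 CPM.

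When the cells were not split by class, 2 chemokines were 2-fold higher (background 5.65%), Cxcl2 again with most of its UMIs (214) from EV 1, and 2 lower (background 19.3%), and several ratios differed from those in feeder cells. Germ cells were 53.4% and 55.4% of the kept cells of vehicle 1 and vehicle 2 and 4.75% of EV 1. The log2 ratio of Ccl2 was 0.15 over all kept cells against −0.53 in feeder cells, and that of Cxcl12 was 0.45 against −0.18. Cxcl1 stood at 2.08 against 1.37, and Ccl7 at −1.31 against −2.02.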

How the data were processed

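Libraries had been made with the 10x Genomics droplet protocol. According to the study's methods the authors aligned reads to mm10 (GENCODE vM23/Ensembl 98) with Cell Ranger 7.0.1, and the deposited values are raw UMI counts per gene and barcode over 32285 genes. Groups and replicate numbers came from sample titles. The deposited barcodes numbered 9291, 9738 and 5249 in vehicle 1, vehicle 2 and EV 1, with 23686047, 27444797 and 10793232 UMIs. Following the limits in the study's methods, a barcode needed more than 400 genes, fewer than 4000, and less than 10% of its UMIs from mitochondrial genes. Scrublet in scanpy 1.11.5 scored doublets, and 633, 697 and 198 cells with the top scores were left out, on the basis of 0.8% for every 1000 cells (the study used DoubletFinder).

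UMIs were summed per library and class and scaled to CPM. The log2 ratio is that of EV 1 to the mean of the vehicle libraries (each sum raised by 0.5 UMI), over genes with at least 200 UMIs, and called means at least 2-fold. Levels carry exact Poisson intervals, ratios to the pooled vehicle libraries exact conditional intervals, and shares Wilson intervals. The steps were tested on simulated counts with known folds. The 9 genes, the gene lists and the rule for naming genes (all 9, and the 3 highest and 3 lowest of each list) were chosen with earlier results of these data known. Some genes that the rule names are not reported here. Cxcl3, Sox9 and the fibroblast and leukocyte markers given with values were named after their values were seen. Positions are from GENCODE vM21, promoters from RefSeq. Python 3.11.15, numpy 2.4.6, pandas 2.3.3, scipy 1.17.1, matplotlib 3.10.9 and, for scaling factors of alternatives only, edgeR 4.0.16 and DESeq2 1.42.0 in R 4.3.3 were used.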

Additional observations from a re-analysis of the deposited data

Results flagged for a closer look

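Cells of neither class, whose levels are not described in the report, also held chemokine UMIs, and 3 genes stood above the counting intervals of both vehicle libraries there. Cxcl1 was at 265.9 CPM in such cells of EV 1 (773 UMIs in 363 of 2044 cells) and at 57.7 and 76.1 CPM in those of vehicle 1 and vehicle 2. Cxcl2 was at 8.26 CPM (24 UMIs, 19 of them in 1 cell), against 0 and 0.448 CPM from 0 and 1 UMIs. Ccl2 was at 453 CPM, against 374.5 and 333.5 CPM, so that it was higher in EV 1 here and lower in the feeder class. Ccl7 was lower in EV 1, at 34.7 CPM against 71.3 and 60.4 CPM, with intervals that did not overlap. Ccl5 stood at 39.8, 29.5 and 17.5 CPM in vehicle 1, vehicle 2 and EV 1, but at 14.0, 10.8 and 10.7 CPM without the highest cell of each. Cxcl10 had 8, 16 and 1 UMIs, 10 of those in vehicle 2 in 1 cell, and the intervals of EV 1 and vehicle 1 overlapped. The difference between the classes was not tested. Median depths of these cells were 1349, 1407 and 1177 UMIs.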

How the results depend on the processing

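The expression of EV 2 was not analysed here, so that the EV arm was 1 library and no test was made, and the vehicle SD rests on 2 libraries. The feeder median of the chemokines was −0.53. It was −0.61 with at least 5 marker UMIs per cell, where Cxcl2 fell under the UMI minimum. The count of higher genes was then 1 of 6 (background 1.04%). The median was −0.46 with TMM scaling and −0.44 with DESeq2 size factors. It was −0.45 both as a mean over cells of counts per 10000 and with each cell thinned to 1000 UMIs. The count of higher genes was 2 in the other alternatives tried, with backgrounds between 1.36% and 9.95%. The count of lower genes, 2 of 7, was 3 of 9 without a UMI minimum (Cxcl5 entered), where the background was 9.73% of 32285 genes. It was 3 of 7 without vehicle replicate 1 (background 2.95%) and without the highest cell (2.94%), as Ccl5 entered in both. The median feeder over germ ratio, 3.72, was 2.92 with 3 UMIs added. The median ratio of co-detected pairs, 1.38 as a mean over libraries, was 1.18 with at least 5 marker UMIs, 1.26 with doublets kept, 1.21 at 2000 UMIs per cell and 1.24 without thinning. Over 13 alternatives the log2 ratio of Cxcl1 lay between 1.27 and 1.47, that of Ccl7 between −2.07 and −1.89, that of Cxcl10 between −3.94 and −2.78 and that of Cxcl2 between 3.96 and 5.15, while Ccl5, at −0.90, was at −1.10 without vehicle replicate 1 and at −1.01 without its highest cell, and Cxcl12 was at 0.03 when thinned, against −0.18. Leaving out the highest cell and taking all cells that are not germ cells were chosen after seeing the data. The cause of these shifts was not tested. No paired analysis was possible because the expression of EV 2 was not analysed here, which leaves 1 shared replicate number.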
